A study of Mus musculus with 6 samples.

Results

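The data are ChIP-seq peaks of ZFP57 and of its co-repressor KAP1 at 3 imprinted loci of the mouse whose control region carries its DNA methylation on the paternal allele, *H19*-*Igf2*, *Dlk1*-*Meg3* and *Rasgrf1*. The members were all peaks of the 4 deposited lists that shared at least 1 bp with the bodies of the genes *H19*, *Igf2*, *Dlk1*, *Meg3* and *Rasgrf1*, with the stretches *H19* to *Igf2* and *Dlk1* to *Meg3*, or with 20 kb on either side (assembly mm9). They were 35 peaks of the 123233 in all 4 lists. The cells were male hybrid ESC lines grown without feeders in medium with serum and LIF. The mother of JB1 was JF1 and its father B6, and in BJ1 the parents were exchanged. The paternal allele of each locus is therefore B6 in JB1 and JF1 in BJ1. Each line was precipitated with an antibody against ZFP57 and with an antibody against KAP1, with 1 library per line and antibody, and the 2 input libraries did not enter the counts. With a single library in each group there is no replicate error, no test between the lines was possible, and the values below describe these libraries. The lists give positions without height or *P*-value, the depth behind them is unknown, and a peak does not tell which allele was precipitated.

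At an imprinted locus a control region that was methylated in only 1 of the germlines directs the expression of its neighbouring genes from only 1 parental allele. ZFP57 is a KRAB zinc-finger protein that binds the methylated form of a hexanucleotide with a CpG and brings in KAP1, which in turn recruits the enzymes that keep H3-lysine-9-trimethylation and DNA methylation in place. Most control regions are methylated in the oocyte and lie over a promoter, whereas the few that are methylated in sperm lie between or upstream of genes.

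The sequences under the ZFP57 peaks are shown first, since the counts of motifs below refer to them. At *H19*, whose control region is also bound by the insulator protein CTCF on the unmethylated allele, 3 of the TGCCGC motifs are followed after 2 bases by GGNGGCAG, the end of the CTCF consensus. The 3 sites are given from the strand of the motif, which is the minus strand of mm9, with TGCCGC and GGNGGCAG in capitals.
*H19* first peak, chr7:149766207-149766236: cagacgaTGCCGCgtGGTGGCAGtacaata
*H19* second peak, chr7:149767688-149767717: ccagggtTGCCGCacGGCGGCAGtgaagtc
*H19* second peak, chr7:149767932-149767961: cgggagtTGCCGCgtGGTGGCAGcaaaatc
In the *Meg3* peak nearer to the gene, 5 TGCCGC motifs follow each other on the plus strand. They are given as successive stretches, each from a TGCCGC, in capitals, to the base before the next, and the last to the length of the stretch before it.
*Meg3* stretch 1, chr12:110766506-110766551: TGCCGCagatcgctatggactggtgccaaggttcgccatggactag
*Meg3* stretch 2, chr12:110766552-110766597: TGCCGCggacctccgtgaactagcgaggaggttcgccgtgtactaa
*Meg3* stretch 3, chr12:110766598-110766625: TGCCGCttcgcgtaccgctgtgtacgcg
*Meg3* stretch 4, chr12:110766626-110766648: TGCCGCgaaccgccgtggaattg
*Meg3* stretch 5, chr12:110766649-110766671: TGCCGCggttcgccgtggagtag
Counted from the first base of each, the 6 of the motif included, the first stretch and the second were identical at 32 of 46 bases, and the fourth and the fifth at 18 of 23 bases. The second and the third were identical at 10 of 28 bases, and the third and the fourth at 10 of 23 bases. The peak of *Rasgrf1* lay outside the 20 kb flank and is shown for comparison, on the plus strand of chr9:89774434-89774733, with TGCCGC and GGCCGC of either strand in capitals.
*Rasgrf1* upstream peak: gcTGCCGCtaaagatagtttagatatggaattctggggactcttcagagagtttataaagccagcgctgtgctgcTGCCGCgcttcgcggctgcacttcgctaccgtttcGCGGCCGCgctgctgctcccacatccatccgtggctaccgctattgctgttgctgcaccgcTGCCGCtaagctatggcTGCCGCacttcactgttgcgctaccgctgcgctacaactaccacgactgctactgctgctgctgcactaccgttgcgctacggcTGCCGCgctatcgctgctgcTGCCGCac
All sequences are of the mm9 reference, which is a B6 genome, and the bases of JF1 were not examined here.

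ZFP57 was found in both lines at the control regions of *H19* and *Meg3* and nowhere else in the 3 windows. The windows held 4 ZFP57 peaks in JB1 and 3 in BJ1, and all of them overlapped a ZFP57 peak of the other line. Over the whole lists, 5.40% of the JB1 peaks and 43.6% of the BJ1 peaks did so. All 4 peaks of JB1 and all 3 of BJ1 also overlapped a KAP1 peak of their own line, against 60.5% and 55.7% of the lists. In density, the 3 windows together held 8.94 ZFP57 peaks per Mb in JB1 against 4.02 per Mb of the genome, and 6.71 per Mb in BJ1 against 0.496 per Mb.

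**Figure D1:**
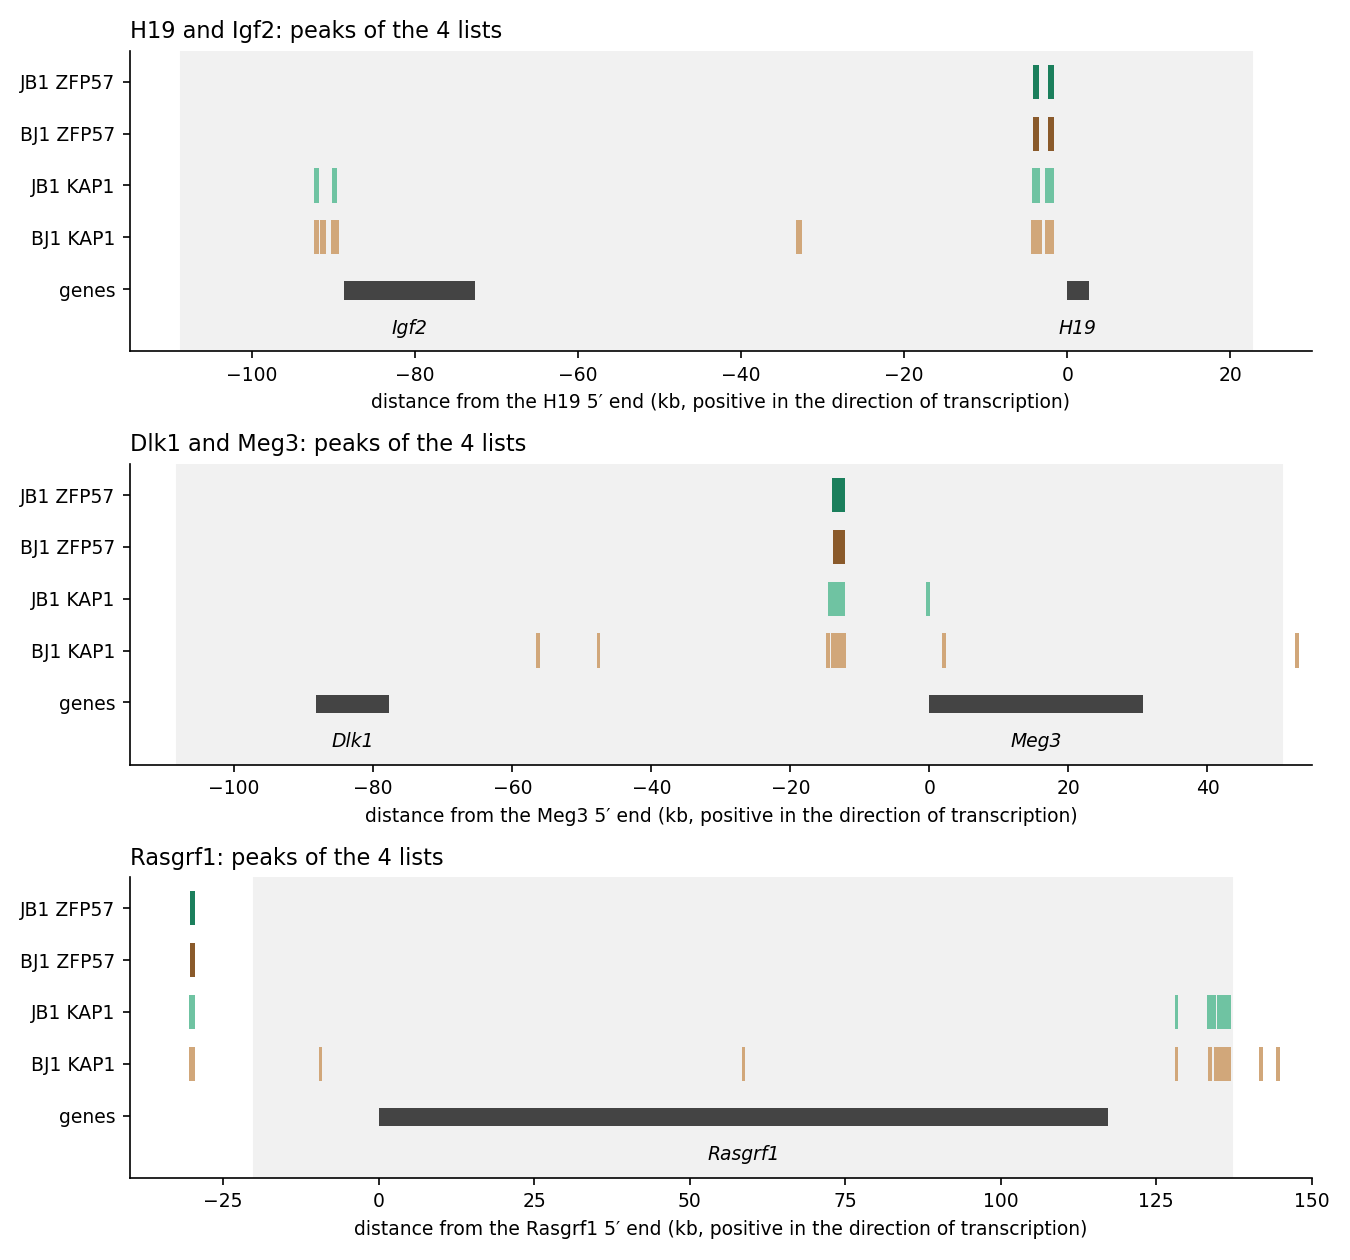
Peaks of the 4 lists (coloured boxes, drawn at least 0.5 kb wide) and the member genes (dark boxes) against the distance in kb from the 5′ end of *H19*, *Meg3* or *Rasgrf1*, with the gene bodies, intergenic stretches and 20 kb flanks shaded. ZFP57 boxes of both lines stand together upstream of *H19* and between *Dlk1* and *Meg3*, whereas at *Rasgrf1* they lie 29.6 kb upstream, outside the shaded window.

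*H19*, a gene on chromosome 7 (149761434-149764048, minus strand) for a maternally expressed non-coding RNA that is the precursor of miR-675, had 2 ZFP57 peaks upstream of its 5′ end. The peak nearer to the gene lay at chr7:149765701-149766450, and the other at chr7:149767501-149768250. Both were 750 bp wide in both lines with identical edges, and both were intergenic, with near edges 1.65 kb and 3.45 kb upstream of *H19*. The gap between them was 1050 bp. The edges are known in steps of 150 bp only, the windows on which all peaks of the lists lay.

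The KAP1 peaks of *H19* covered both ZFP57 peaks. Over the nearer of them KAP1 gave 1 peak in each line, chr7:149765701-149766750, which was 1050 bp wide in both. Over the farther, the KAP1 peak was 1050 bp wide in JB1 and 1350 bp in BJ1. At each of the 2 sites KAP1 thus reached at least as far as ZFP57 on both sides.

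*Igf2* (149836673-149852721, minus strand), which encodes a fetal growth factor expressed from the paternal allele, had KAP1 peaks and no ZFP57 peak. In JB1 2 KAP1 peaks lay upstream of its annotated 5′ end, at 1.03 kb with a width of 450 bp and at 3.13 kb with a width of 600 bp. In BJ1 the peaks were 3, at 0.73 kb with 900 bp, at 2.23 kb with 750 bp and at 3.13 kb with 600 bp. The outermost peak had the same edges in both lines, chr7:149855851-149856450, and the innermost overlapped between the lines, whereas the middle peak was in the BJ1 list alone. All of them overlapped exons of *Igf2os* (annotated as *Igf2as*), the antisense transcript of *Igf2*. None of these sites carried a pair of closely spaced motifs, and only the middle peak held a motif, 1 TGCCGC. Between *H19* and *Igf2*, a stretch of 72.6 kb, BJ1 had a further KAP1 peak of 750 bp at 32.6 kb upstream of *H19*, without a motif.

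*Dlk1* (chromosome 12, 110691033-110701546, plus strand), which encodes a membrane protein related to the Notch ligands and is expressed from the paternal allele, had no peak of any list in its body or within 2 kb of its 5′ end. ZFP57 lay in the 77.7 kb between *Dlk1* and *Meg3* (110779211-110809936, plus strand), the gene of a maternally expressed long non-coding RNA. In JB1 there were 2 adjoining peaks of 900 bp, chr12:110765251-110766150 and chr12:110766151-110767050, and in BJ1 there was 1 peak of 1650 bp, chr12:110765401-110767050. The stretch bound was 1800 bp in JB1 and 1650 bp in BJ1, with the same edge on the side of *Meg3*, 12.2 kb upstream of its 5′ end. The JB1 peaks adjoin without a gap and both overlap the BJ1 peak, so that the counts of 2 and 1 concern nearly the same stretch.

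KAP1 extended beyond ZFP57 on the side of *Dlk1* in both lines. In JB1 its peak was 2400 bp wide, chr12:110764651-110767050, and ended where ZFP57 ended on the side of *Meg3*. In BJ1 a peak of 2100 bp, chr12:110765101-110767200, was followed on the side of *Dlk1* by another of 600 bp, and the 2 spanned 2850 bp. The smaller peak overlapped the KAP1 peak of JB1 but no ZFP57 peak, although it held 2 TGCCGC motifs with starts 465 bp apart.

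At the 5′ end of *Meg3* the lines differed in the KAP1 lists, each with 1 peak at a different place. JB1 had a peak of 450 bp whose edge lay 11 bp before the annotated 5′ end, and BJ1 had a peak of 600 bp in the gene, 1.79 kb after it. Neither overlapped a KAP1 peak of the other line, and neither line had ZFP57 there. The sequence of the JB1 peak is shown because it is the only cluster of motifs in the windows that lay under KAP1 without ZFP57. It holds a GGCCGC and a TGCCGC with starts 15 bp apart, both on the minus strand and in capitals below.
*Meg3* promoter, chr12:110778991-110779031: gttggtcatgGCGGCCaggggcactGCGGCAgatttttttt
Of the JB1 KAP1 peaks, 9.75% were narrower than its 450 bp. BJ1 had 2 further narrow KAP1 peaks of 450 bp between *Dlk1* and *Meg3*, at 31.6 kb and 40.3 kb after the 5′ end of *Dlk1*, without motifs.

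*Rasgrf1* (chromosome 9, 89804613-89921814, plus strand), which encodes an exchange factor for Ras expressed from the paternal allele in brain, had no ZFP57 peak within 20 kb in either line. The nearest ZFP57 peak was chr9:89774251-89775000, 750 bp wide with identical edges in both lines, and lay 29.6 kb upstream of the 5′ end and 9.61 kb outside the flank. It overlapped a KAP1 peak of 900 bp with the same edges in both lines, chr9:89774101-89775000. The peaks of the control region upstream of *Rasgrf1* are therefore just outside the rule, and with a flank of 50 kb they would have been members. Nearer to a window than these, but also outside it, were KAP1 peaks of BJ1, 1.92 kb beyond that of *Meg3*, in the coding sequence of *Rtl1*, and 4.34 kb beyond that of *Rasgrf1*.

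**Figure D2:**
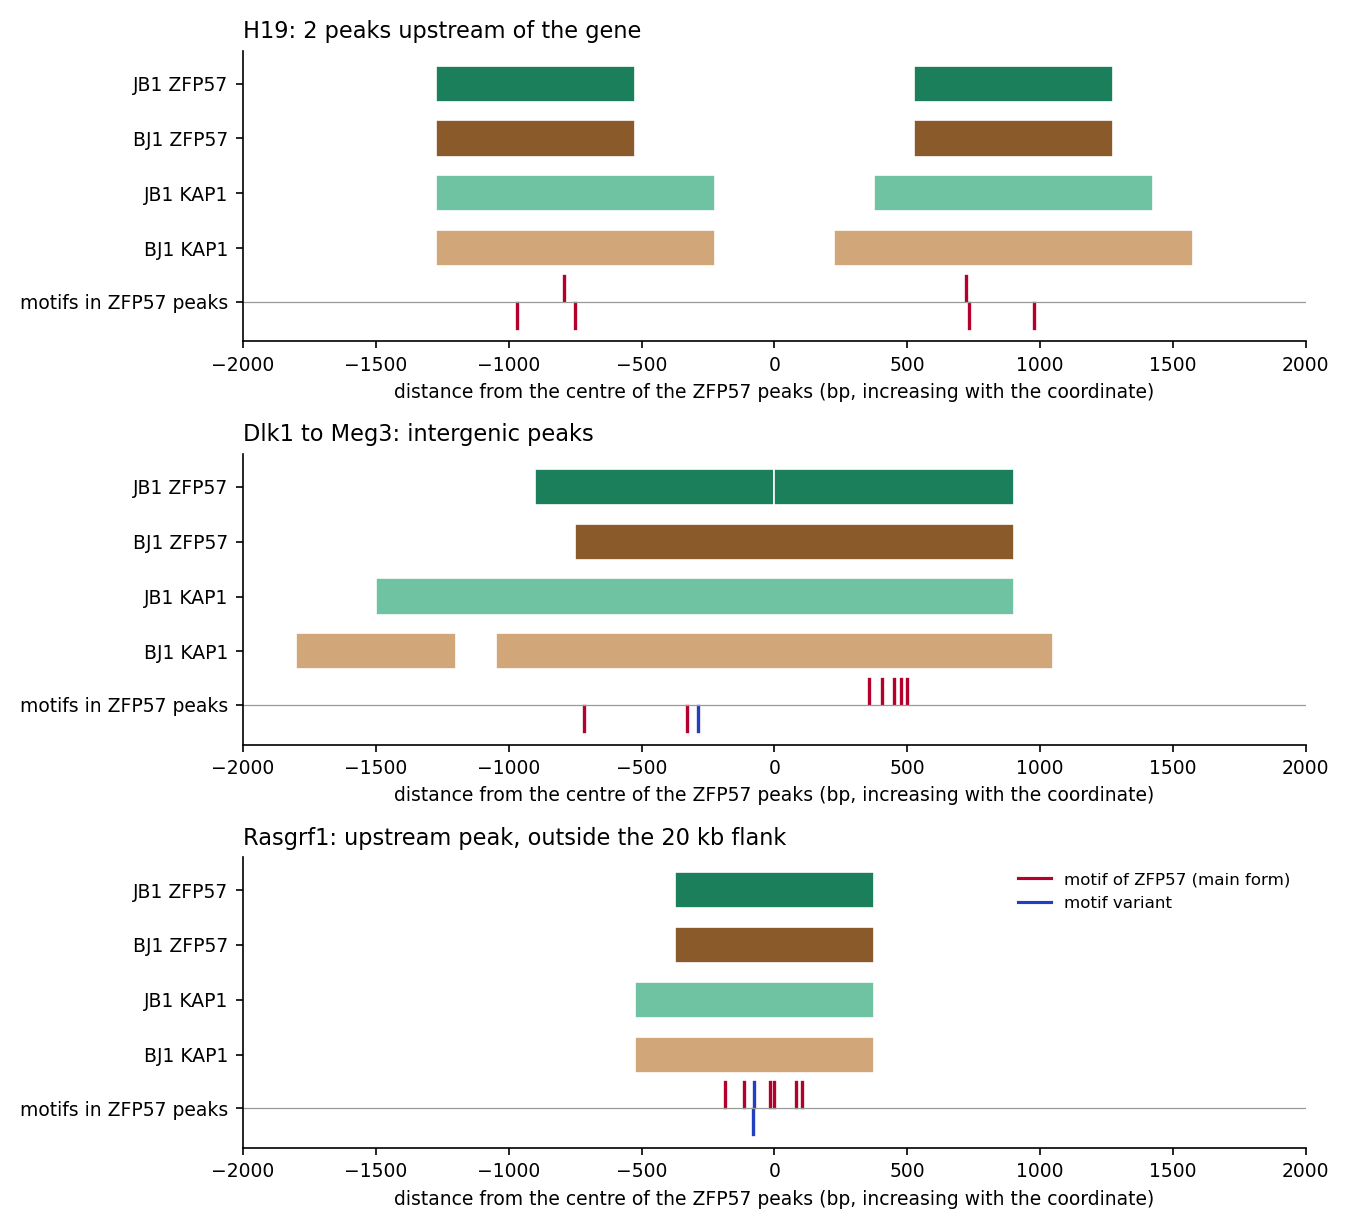
Peaks of the 4 lists at *H19*, between *Dlk1* and *Meg3*, and upstream of *Rasgrf1*, against the distance in bp from the centre of the JB1 ZFP57 peaks. Ticks mark TGCCGC (red, main form) and GGCCGC (blue, variant), on the plus strand above the line and on the minus strand below it. Only motifs inside the JB1 ZFP57 peaks are drawn, and motifs under KAP1 alone are not. The 5 red ticks of the *Meg3* peak stand together on the plus strand, the *Rasgrf1* peak holds 8 ticks, and the KAP1 boxes cover the ZFP57 boxes of their line.

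Within the *Rasgrf1* window KAP1 was found mostly after the gene. From 15.9 kb past its annotated end, a stretch of 3.9 kb, chr9:89937751-89941650, was covered to 96.2% by 3 peaks in JB1 and to 80.8% by 4 peaks in BJ1. The widest of them were 1500 bp in JB1 and 1800 bp in BJ1. All 3 of JB1 overlapped a peak of BJ1 and all 4 of BJ1 a peak of JB1. The stretch lies between *Rasgrf1* and *Ctsh*, the gene of the lysosomal protease cathepsin H, and its nearest edge was 7340 bp from the *Ctsh* 5′ end. A narrow peak at 128 kb after the *Rasgrf1* 5′ end was also in both lists, whereas BJ1 alone had peaks of 450 bp 9.21 kb upstream of the gene and in an intron, 58.4 kb after its start. None of the KAP1 peaks in this window overlapped ZFP57.

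Taking all lists, the peaks of the windows formed 16 separate regions, 6 at *H19*-*Igf2*, 5 at *Dlk1*-*Meg3* and 5 at *Rasgrf1*. All 4 lists had a peak in 3 regions, the 2 of *H19* and that between *Dlk1* and *Meg3*. The other 13 regions had KAP1 alone, 5 of them in both lines, 1 in JB1 alone and 7 in BJ1 alone. Counted by peaks over the whole lists, 85.9% of KAP1 in JB1 and 45.3% in BJ1 overlapped KAP1 of the other line. ZFP57 of the same line was overlapped by 14.1% and 1.00%.

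Over the 3 windows together the density of KAP1 was 1.53 times that of the genome in JB1 and 1.47 times in BJ1, against 2.23 and 13.5 times for ZFP57. The KAP1 ratio rests on the flanks: over the genes and intergenic stretches alone, KAP1 was at 12.2 peaks per Mb in JB1 and 27.5 per Mb in BJ1, or 0.838 and 1.01 times the genome, from 4 and 9 peaks, and ZFP57 was at 3.04 and 18.5 times, from 4 and 3 peaks. In the *Dlk1*-*Meg3* window alone KAP1 of JB1 was at 12.6 peaks per Mb, below that of the genome. The windows held 10 KAP1 peaks in JB1, or 22.4 per Mb against 14.6 per Mb of the genome, and 18 in BJ1, or 40.2 per Mb against 27.3 per Mb. Of the 10 in JB1, 9 overlapped a KAP1 peak of BJ1, against 85.9% of the list, and of the 18 in BJ1, 11 overlapped a peak of JB1, against 45.3%. With a flank of 10 kb these counts were 5 of 6 in JB1 and 6 of 13 in BJ1, the latter near the share of the list. A ZFP57 peak of the same line was overlapped by 3 of 10 KAP1 peaks in JB1, against 14.1%, and by 3 of 18 in BJ1, against 1.00%. The BJ1 list was also the longer (72535 peaks against 38713). Of the peaks of at least 600 bp, the median width of both KAP1 lists, the windows held 11 in BJ1 and 7 in JB1. Such peaks numbered 49393 in BJ1 and 26878 in JB1.

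The ZFP57 peaks of the windows were wider than most of their lists, whereas the KAP1 peaks without ZFP57 were of all widths. In JB1, 83.4% of the ZFP57 peaks were narrower than the 750 bp of the *H19* peaks, and 91.0% were narrower than the 900 bp of the *Meg3* peaks. The 545 JB1 peaks that overlapped ZFP57 of BJ1 and KAP1 of both lines had a median of 750 bp, the width of the *H19* peaks, and the 543 such BJ1 peaks had a median of 450 bp. In BJ1, 86.8% were narrower than the *H19* peaks and 98.6% were narrower than the 1650 bp of the *Meg3* peak. Among KAP1 peaks, the widest of the windows in each line was that over the ZFP57 peaks between *Dlk1* and *Meg3*, with 93.0% of the JB1 list and 95.1% of the BJ1 list narrower. Those of *H19* were wider than 76.6% of the JB1 list, and in BJ1 they were wider than 81.8% and 89.3%. Without enrichment values, width is the only measure of a peak that the lists give.

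**Figure D3:**
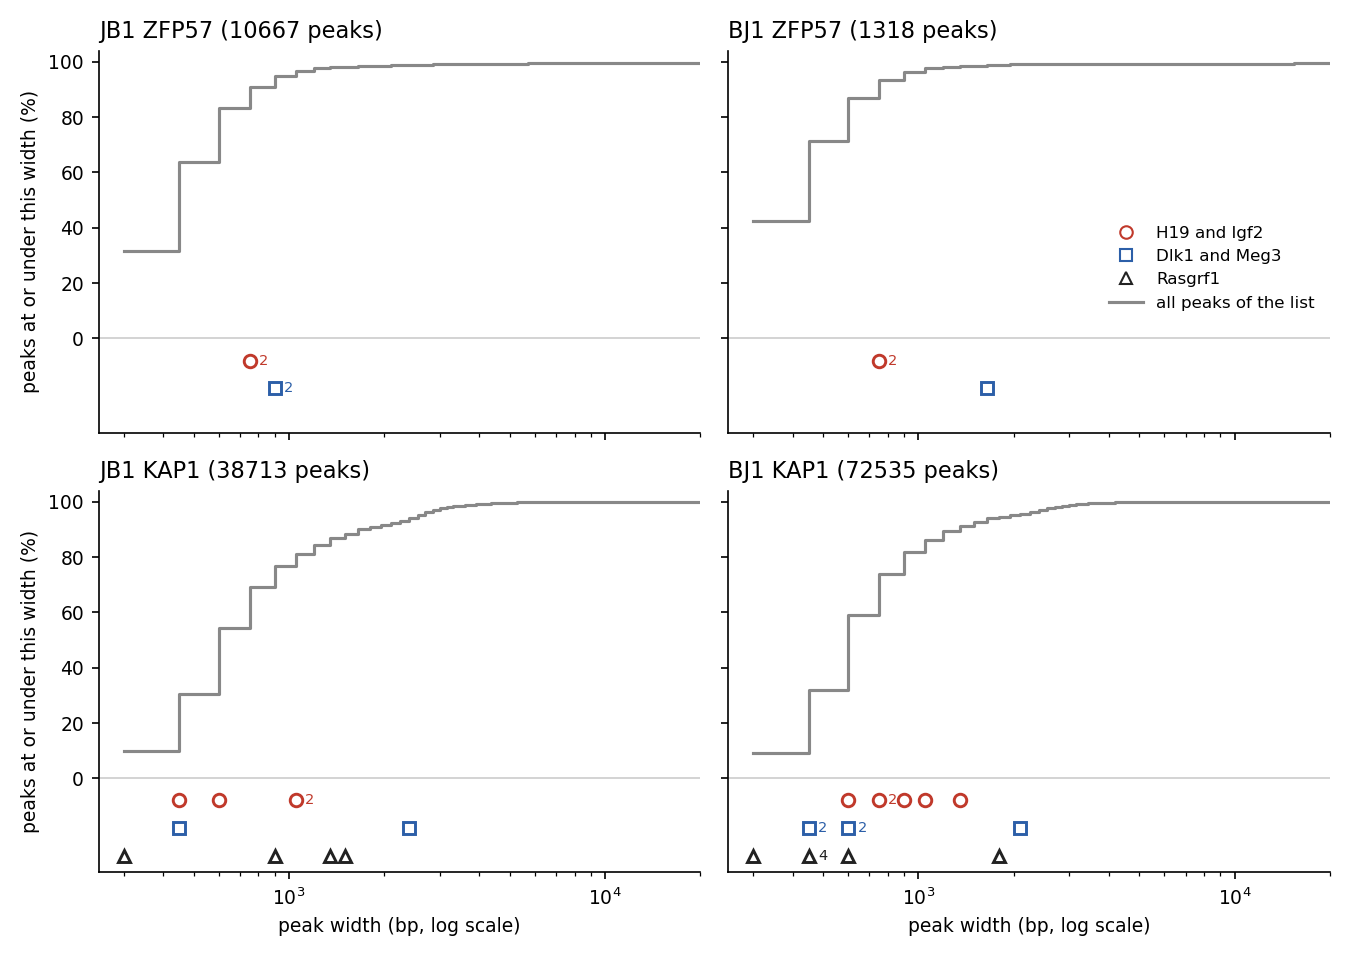
Share of the peaks of each list in percent at or under a given width (grey line, log scale of bp), with the widths of the member peaks marked below the line at 0 by locus, and a number where several share a width. The ZFP57 marks of *H19* and *Meg3* stand at 750 to 1650 bp, right of the median of 450 bp in both lists.

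The motif search used TGCCGC and its variant GGCCGC, each 6 bp long, on both strands. GGCCGC overlaps itself on the other strand where it forms GCGGCCGC, which then counts as 2 motifs. Each *H19* peak held 3 TGCCGC and no GGCCGC. The *Meg3* peaks of JB1 held 2 TGCCGC with 1 GGCCGC and 5 TGCCGC, and the BJ1 peak held all 8 of them. Of the 809 peaks of 750 bp in the JB1 list, 97 held 3 motifs or more, and of the 433 peaks of 900 bp 90 held 3 or more and 14 held 5 or more. In stretches of mm9 of the same lengths, cut end to end, 0.378% and 0.484% held 3 or more. Among the 545 JB1 peaks that overlapped ZFP57 of BJ1 and KAP1 of both lines, 27.9% held 3 or more and 7.89% held 5 or more.

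TGCCGC, more than GGCCGC, lay under the ZFP57 peaks of the windows. The 3 windows held 108 motifs, 42 of TGCCGC and 66 of GGCCGC, and 14 of the 108 were under a JB1 ZFP57 peak, against 2.53% of the motifs of the genome. The same 14 were under the BJ1 peaks. Within 150 bp of the peak centres the counts were 9 in JB1 and 3 in BJ1. Of TGCCGC, 13 of 42 were under ZFP57 peaks, against 3.95% of the genome in JB1 and 0.653% in BJ1. Of GGCCGC, 1 of 66 was, against 1.04% and 0.214%. At *H19*-*Igf2* 6 of 12 TGCCGC and 0 of 23 GGCCGC were bound, and at *Dlk1*-*Meg3* 7 of 24 and 1 of 28. The *Rasgrf1* window held 6 TGCCGC and 15 GGCCGC, of which none was under ZFP57.

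Closely spaced motifs were then examined, with a cluster defined as 2 or more motifs whose successive starts are less than 38 bp apart. The windows held 9 clusters, of which 2 were under a ZFP57 peak in both lines, 1 in the second *H19* peak and 1 in the second *Meg3* peak. Over the genome, 4.23% of the clusters were under a JB1 ZFP57 peak and 1.39% under a BJ1 ZFP57 peak. KAP1 covered 3 of the 9 in JB1, against 13.7%, and 2 of the 9 in BJ1, against 16.7%. Of the 7 clusters outside ZFP57 peaks, 2 were a GCGGCCGC of 8 bp, and the nearest to a gene start were those of *Meg3*, at 190 bp, and of *Dlk1*, at 493 bp and 656 bp. When TGCCGC alone was counted, the windows held 2 clusters, and both were under a ZFP57 peak of both lines, against 10.6% of such clusters in the genome for JB1 and 4.71% for BJ1.

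Not every bound peak had a cluster by the 38 bp definition. Of the ZFP57 peaks, 2 of 4 in JB1 and 2 of 3 in BJ1 held at least 1, against 6.07% and 14.9% of the lists. Among the peaks that overlapped ZFP57 of the other line and KAP1 of both lines, a nearer background, 35.2% of the 545 JB1 peaks and 33.9% of the 543 BJ1 peaks held a cluster. In the first *H19* peak the nearest motifs had starts 43 bp apart, and in the first *Meg3* peak 44 bp apart. With starts less than 50 bp apart, all 4 JB1 peaks therefore held a cluster, and the shares of the lists above are for 38 bp. The cluster of the second *H19* peak is a convergent pair of TGCCGC, at 149767696 on the plus strand and 149767705 on the minus strand, with starts 9 bp apart. The cluster of *Meg3* has 3 motifs on the plus strand, with starts 28 and 23 bp apart. Of the 3 motifs of the first *Meg3* peak, all on the minus strand, a TGCCGC and then a GGCCGC lie in the stretch shown, and the other TGCCGC starts 387 bp before them.
*Meg3* first peak, chr12:110765808-110765877: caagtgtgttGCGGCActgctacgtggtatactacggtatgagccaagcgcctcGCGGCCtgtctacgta

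The arrangement of TGCCGC and GGNGGCAG printed above for *H19* was counted after the sequences had been seen. In mm9 it occurs 29 times, and 3 of these sites were under a ZFP57 peak, the 3 of *H19*, in both lines. Of the 10667 JB1 ZFP57 peaks, 2 held it, or 0.0187%, and these were the *H19* peaks themselves. GGNGGCAG by itself was found in both *H19* peaks, 1 in the first and 3 in the second, and in neither *Meg3* peak, against 6.60% of the JB1 ZFP57 peaks of all widths. The peak upstream of *Rasgrf1* held 1. Of 7 ZFP57 peaks at maternally methylated loci, 2 held it, with 1 at *Peg3* and 2 at *Airn*. It was in 10.0% of the JB1 ZFP57 peaks of 750 bp, in 17.4% of the 545 JB1 peaks that overlapped ZFP57 of BJ1 and KAP1 of both lines, and in 15.5% of stretches of 750 bp in mm9. In the middle site of those printed, the GGCGGCAG contains, on the other strand, the plus-strand TGCCGC at 149767696. The 30 bases of the first site and the last were identical at 23 positions, of the middle and the last at 21, and of the first and the middle at 18. These counts include the fixed bases of TGCCGC and GGNGGCAG, which agree because the sites were chosen by them. A match is a description of the letters, and the binding of CTCF was not measured here.

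In base composition the bound regions lay on either side of the medians of the shared ZFP57 peaks. The *H19* peaks had 50.5% and 50.0% G and C, and a ratio of observed to expected CpG of 0.564 and 0.491. The *Meg3* peaks had 44.2% and 51.1%, with ratios of 0.737 and 0.63. The 545 JB1 peaks that overlapped ZFP57 of BJ1 and KAP1 of both lines had medians of 49.6% and 0.555, and the whole list had 47.6% and 0.389. Among the 13 regions with KAP1 alone, G and C ranged from 43.3% to 63.2% and the CpG ratio from 0.164 to 0.555, so that these ranges overlapped those of the regions with ZFP57.

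Set beside peaks at maternally methylated loci, the peaks of the windows were lower in G and C. The comparison used the JB1 ZFP57 peaks within 20 kb of *Snrpn*, *Peg3*, *Airn*, *Plagl1*, *Grb10* and *Zrsr1* that overlapped ZFP57 of BJ1 and KAP1 of both lines, and *Kcnq1ot1* was not used here. These 7 peaks had 53.6% to 69.3% G and C, against 44.2% to 51.1% in the 4 peaks at *H19* and *Meg3*, without overlap. The *Rasgrf1* peak, at 60.0%, lay among those of the maternally methylated loci. The ratio of observed to expected CpG did not separate the groups, with 0.471 to 1.17 in the 7 peaks and 0.491 to 0.737 in the 4. The motif numbers of the 7 peaks were 2 to 13 with a median of 5, against 3 to 5 with a median of 3, and the *Rasgrf1* peak held 8. The lower range rests on the JB1 list, in which the *Meg3* stretch is 2 adjoining peaks. In BJ1 it is 1 peak of 1650 bp with 8 motifs, which in both measures is within the range of the JB1 peaks at maternally methylated loci. The BJ1 peaks of those loci were not measured. All 7 held at least 1 cluster, against 2 of 4 at *H19* and *Meg3*, and the *Rasgrf1* peak held 3. This difference depends on the 38 bp, since with starts less than 50 bp apart all 4 held a cluster. Widths were 600 to 1650 bp against 750 to 900 bp, and did not separate the groups. The peaks were chosen by name, and no test was made.

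**Figure D4:**
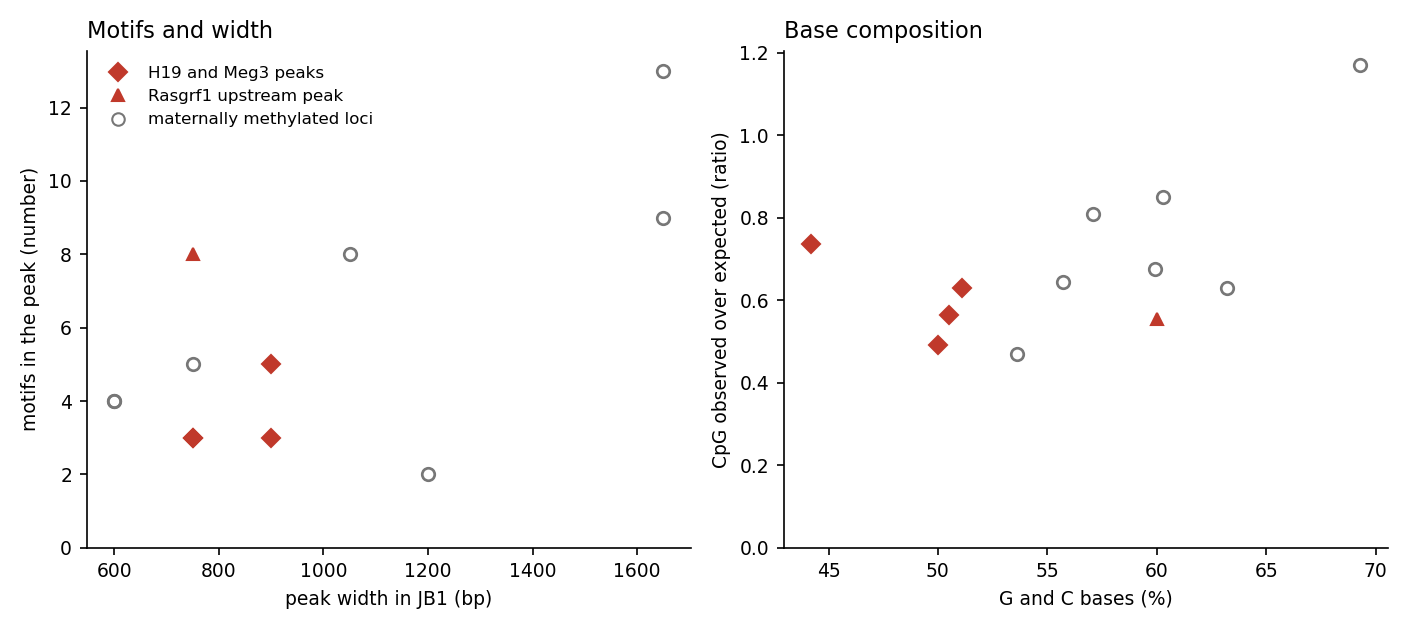
Number of motifs against peak width in bp (left) and ratio of observed to expected CpG against G and C in percent (right) for JB1 ZFP57 peaks at *H19* and *Meg3* (diamonds), upstream of *Rasgrf1* (triangle) and at maternally methylated loci (circles). At left the 2 *H19* peaks share a point at 750 bp and 3 motifs and 2 circles share a point at 600 bp and 4 motifs, and at right the diamonds lie at 44.2% to 51.1%, left of the circles.

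The genes around the 3 control regions were examined for peaks of each list. Of 35 listed genes of the domains, all found in the annotation, 1 had a ZFP57 peak in its body or within 2 kb of its start in JB1 and 1 in BJ1, *H19* in both. This is 2.86% of the genes, between the 5.83% of all annotated genes in JB1 and the 1.45% in BJ1. KAP1 was at 8 of the 35 in JB1, against 15.8%, and at 20 in BJ1, against 32.5%, and genes were not matched for length. All 8 were among the 20. *Igf2*, *Igf2os* and *Meg3* had KAP1 in both lines, and *Rasgrf1* in BJ1 alone. *Ins2*, the insulin gene next to *Igf2*, the enhancer-side transcript *Nctc1*, and *Mir675* and *Mir483*, which lie in *H19* and *Igf2*, had no peak of any list, nor had *Rian* and *Mirg*, the non-coding RNAs after *Meg3*.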

How the data were processed

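ZFP57 and KAP1 were measured by ChIP-seq in JB1 and BJ1, and groups follow the sample titles. The authors trimmed the 50 bp single-end reads (CASAVA 1.8.2), aligned them to mm9 with Bowtie 0.12.7, allowing up to 2 mismatches, used SAMtools 0.1.18 and bedtools 2.14.3-1, and ran MACS on each library with a *P*-value cutoff of 1e-05. The version of MACS and the use of the input are not given in the sources used here. The deposited files hold positions only, counted from 1, with no score, count or signal, so that depth is unknown and width stood in for a score.

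From the files, a shared stretch of 1 bp was enough for an overlap. Genes were taken from GENCODE M1, and motifs were searched as exact matches on both strands of the mm9 sequence. Percentages of the lists are given beside the counts of members. The members and gene lists were chosen with earlier results of these data known. The text names the 5 member genes, the listed genes with a peak in a window, every ZFP57 peak of the windows, the KAP1 peaks over them and the widest other KAP1 peak of each locus, and the remaining KAP1 peaks, the genes without a peak and the peaks just outside were named after their values were seen. Allelic read counts and the other experiments of the study were not analysed here. Alternatives were other flanks, overlap rules, wider peaks, the longer list of a protein cut by width toward the length of the shorter, and other motif distances. The overlap, merging and cluster steps were tested on simulated data and recovered 400 of 400 planted overlaps, 400 of 400 merged regions and 50 of 50 clusters. Python 3.11.15, numpy 2.4.6, pandas 2.3.3, pysam 0.24.0 and matplotlib 3.10.9 were used.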

Additional observations from a re-analysis of the deposited data

How the results depend on the processing

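Of 75 alternative values for 19 results, 63 stayed within 1.5 times the count given or, for widths, within its 95% interval. The regions with all 4 lists were 3 under each alternative except a flank of 50 kb, which added the peak upstream of *Rasgrf1* and gave 4, and the same flank gave 5 ZFP57 peaks in JB1 and 4 in BJ1. KAP1 counts in JB1 went from 10 to 6 with a flank of 10 kb and to 4 with none. In BJ1 they went from 18 to 9 with no flank and to 11 when peaks of at least the median width were kept. The same 49393 peaks of BJ1 were kept when the longer list of a protein was cut by width toward the length of the shorter, which gave 11 again. Ties in width left 49393 KAP1 peaks in BJ1 against 38713 in JB1, and 1772 ZFP57 peaks in JB1 against 1318 in BJ1. KAP1 peaks of JB1 found in BJ1 went from 9 to 5 with a flank of 10 kb, and those of BJ1 found in JB1 from 11 to 6 with that flank and to 7 with peaks of at least the median width. The motifs within 150 bp of the peak centre were 9 in JB1 and 3 in BJ1, in place of 14 in each. Clusters went from 9 to 2 with TGCCGC alone, and those under a JB1 ZFP57 peak from 2 to 4 with starts less than 50 bp apart. The cut of the longer list for the overlap counts was added after seeing the data. No paired analysis was possible because each line and antibody has 1 library and no result comes from a test across samples. Peak edges are known to 150 bp, and the depth of the libraries is unknown, so that a peak missing from a list may have been below the threshold of that library.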
